A study of Homo sapiens with 28 samples.

Results

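Described here are 48 genes of DNA replication and S phase, listed by their known roles. A gene counted as a member where the platform table gave its symbol to a probe, which held for 46 of the 48 genes and 64 of 47231 probes; CDT1 and UHRF1 were not analysed here. In all, 18811 genes had a probe. Of the 46 genes, 44 passed the filter on detection in each of the 3 experiments. GINS1 was detected on 1 of 28 arrays and CCNE2 on 0 of 28, so neither was tested. By role, the 46 genes were 10 of origin licensing, 7 of helicase activation, 8 polymerase and primase subunits, 10 of the sliding clamp, its loader, single-strand binding and strand joining, 5 of nucleotide supply, 2 of chromatin assembly at the fork and 4 of the E2F and cyclin E control of S phase entry.

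DNA replication is prepared in G1, when the origin recognition complex and CDC6 load the ring-shaped MCM helicase onto DNA, and it starts when the kinases CDC7 and cyclin E-CDK2 turn that helicase on with the help of CDC45, MCM10 and the GINS complex. Primase and the polymerases alpha, delta and epsilon then copy the strands, held to DNA by the clamp PCNA, while ribonucleotide reductase, thymidylate synthase and their partners make the deoxynucleotides. Many of these genes are transcribed from late G1 by the E2F factors, which the retinoblastoma protein holds back until cyclin D and cyclin E kinases phosphorylate it; in mantle cell lymphoma a translocation typically drives the cyclin D1 gene.

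RNA from JeKo-1 and Z138, 2 established cell lines of human mantle cell lymphoma, was measured on 28 bead arrays. The first experiment was a time course of ONC201, an imipridone compound tested against cancers, in JeKo-1: wells were taken at the start (0 h) and at 12, 24 and 36 h of drug, 3 per time, and the labels give no dose. In a second experiment, Z138 cells that were either parental and naive to the drug or ONC201-resistant received 5 µM ONC201 or no drug for 24 h, with 2 wells in each of 4 groups. In the third experiment, JeKo-1 cells received 1 µM tunicamycin, which blocks N-linked glycosylation in the endoplasmic reticulum, for 12 or 24 h, or 10 nM rapamycin, an inhibitor of the kinase complex mTORC1, for 24 h, beside untreated cells at 24 h, with 2 wells per group. All drugs were given in DMSO, which the untreated wells also received. Because each experiment divided 1 stock culture of a line over its wells, the p-values reflect well-to-well spread only, and that spread may be technical. The ONC201-resistant cells are 1 line, and the labels do not say how it was made. Each experiment was run on a chip of its own, so experiment and chip cannot be told apart, and the time course has no untreated cells beyond 0 h.

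Over the genes kept in all 3 experiments, arrays deviated from their group means with an SD of 0.0889 to 0.148 in log2 units; in groups of 2 both arrays deviate equally by construction, so this cannot show which of a pair stands apart. On each array 29.7% to 35.2% of probes were detected, and 0 pairs of arrays held identical signals. The B cell markers MS4A1, CD79A, CD79B and BLK and the mantle cell lymphoma marker SOX11 were detected on all 28 arrays and CD22 on 22. CCND1, the cyclin D1 gene, was detected on the 8 Z138 arrays and on 0 of the 20 JeKo-1 arrays by its 1 probe, and CD5 on 0 of 28. Of the T cell, myeloid and fibroblast markers with a probe, CD3D, CD3E, CD8A, LYZ and COL1A2 were detected on 0 arrays, CSF1R and DCN on 1, CD14 on 7, and CD3G and COL1A1 on the 8 Z138 arrays.

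RefSeq promoter windows of build GRCh38.p14, from 250 bases before to 50 after the transcription start, were found for 41 of the 48 genes; POLD3, MCM4, RPA3, RPA2, MCM5, CCNE2 and GINS4 were not matched. Each window was searched on both strands for the E2F words TTTCCCGC, TTTCGCGC, TTTGCCGC and TTTGGCGC and for CCAAT, the word bound by the factor NF-Y. An E2F word lay in a window of 22 of the 41 genes (53.7%), against 3.99% of 27305 genes and 3.31% of 35116 windows. CCAAT lay in 24 of 41 (58.5%), against 39.7% of genes and 34.6% of windows. E2F words overlap each other in the windows of MCM2 and MCM6, and a match is a description of letters, not evidence of binding. The windows of 7 genes on which the results turn are printed 5′ to 3′ as transcribed, to set windows with and without an E2F word side by side. Where a gene had several windows, the 1 with the most E2F and CCAAT words together was picked. Of the 7 genes, PCNA and RRM2 had 2 windows each and DUT had 4. Capitals mark E2F and CCAAT words on either strand. PCNA is at chr20:5126573-5126872 on the minus strand, TYMS at chr18:657403-657702 on the plus strand, DUT at chr15:48331947-48332246 on the plus strand, E2F1 at chr20:33686336-33686635 on the minus strand, CDC6 at chr17:40287629-40287928 on the plus strand, PRIM1 at chr12:56752274-56752573 on the minus strand and RRM2 at chr2:10122489-10122788 on the plus strand.
PCNA: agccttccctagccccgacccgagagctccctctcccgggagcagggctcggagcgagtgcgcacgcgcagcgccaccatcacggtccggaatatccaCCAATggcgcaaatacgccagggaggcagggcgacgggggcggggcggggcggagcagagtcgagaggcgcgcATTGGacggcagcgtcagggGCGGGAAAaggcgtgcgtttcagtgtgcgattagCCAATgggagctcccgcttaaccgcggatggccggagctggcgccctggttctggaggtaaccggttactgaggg
TYMS: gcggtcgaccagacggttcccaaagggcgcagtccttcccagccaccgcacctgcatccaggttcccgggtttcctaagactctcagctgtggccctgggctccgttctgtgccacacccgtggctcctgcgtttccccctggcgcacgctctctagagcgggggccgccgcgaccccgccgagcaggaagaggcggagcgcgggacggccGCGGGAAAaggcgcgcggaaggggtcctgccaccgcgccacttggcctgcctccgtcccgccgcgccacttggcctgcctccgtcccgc
DUT: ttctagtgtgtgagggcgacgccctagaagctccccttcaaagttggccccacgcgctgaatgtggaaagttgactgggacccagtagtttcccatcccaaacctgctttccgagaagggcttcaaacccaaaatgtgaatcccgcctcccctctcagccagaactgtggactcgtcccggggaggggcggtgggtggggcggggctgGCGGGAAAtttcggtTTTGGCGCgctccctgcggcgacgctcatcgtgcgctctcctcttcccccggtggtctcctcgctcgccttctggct
E2F1: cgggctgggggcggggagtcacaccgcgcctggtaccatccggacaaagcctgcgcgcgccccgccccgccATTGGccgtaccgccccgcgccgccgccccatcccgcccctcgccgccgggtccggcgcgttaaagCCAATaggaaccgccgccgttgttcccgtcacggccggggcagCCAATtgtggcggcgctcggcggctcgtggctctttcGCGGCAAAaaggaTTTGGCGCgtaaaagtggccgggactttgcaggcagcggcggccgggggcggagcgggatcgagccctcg
CDC6: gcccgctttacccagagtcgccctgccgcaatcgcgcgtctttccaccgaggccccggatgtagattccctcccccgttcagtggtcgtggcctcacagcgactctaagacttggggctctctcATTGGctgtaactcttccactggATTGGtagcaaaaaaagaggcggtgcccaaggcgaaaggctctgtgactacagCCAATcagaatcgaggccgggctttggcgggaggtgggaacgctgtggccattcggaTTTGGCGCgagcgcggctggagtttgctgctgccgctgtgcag
PRIM1: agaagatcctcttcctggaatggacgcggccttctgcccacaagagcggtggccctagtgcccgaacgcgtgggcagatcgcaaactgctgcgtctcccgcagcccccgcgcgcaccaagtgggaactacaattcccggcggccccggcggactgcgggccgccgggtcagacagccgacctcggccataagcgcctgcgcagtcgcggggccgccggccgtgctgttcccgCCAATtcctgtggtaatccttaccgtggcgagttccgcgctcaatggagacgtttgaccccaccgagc
RRM2: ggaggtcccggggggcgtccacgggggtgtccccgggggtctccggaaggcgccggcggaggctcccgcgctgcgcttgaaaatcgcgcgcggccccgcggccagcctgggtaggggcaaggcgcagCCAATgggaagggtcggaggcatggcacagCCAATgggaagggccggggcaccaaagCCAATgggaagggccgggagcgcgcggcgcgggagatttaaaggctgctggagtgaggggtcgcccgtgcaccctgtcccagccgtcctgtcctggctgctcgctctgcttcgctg
The windows of PCNA, E2F1 and CDC6 hold E2F and CCAAT words together, those of TYMS and DUT hold E2F words alone, and those of PRIM1 and RRM2 hold CCAAT alone. Neither word lay in the windows of CCNE1, POLD1, RFC2, RFC4, FEN1 and CHAF1B.

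**Figure D1:**
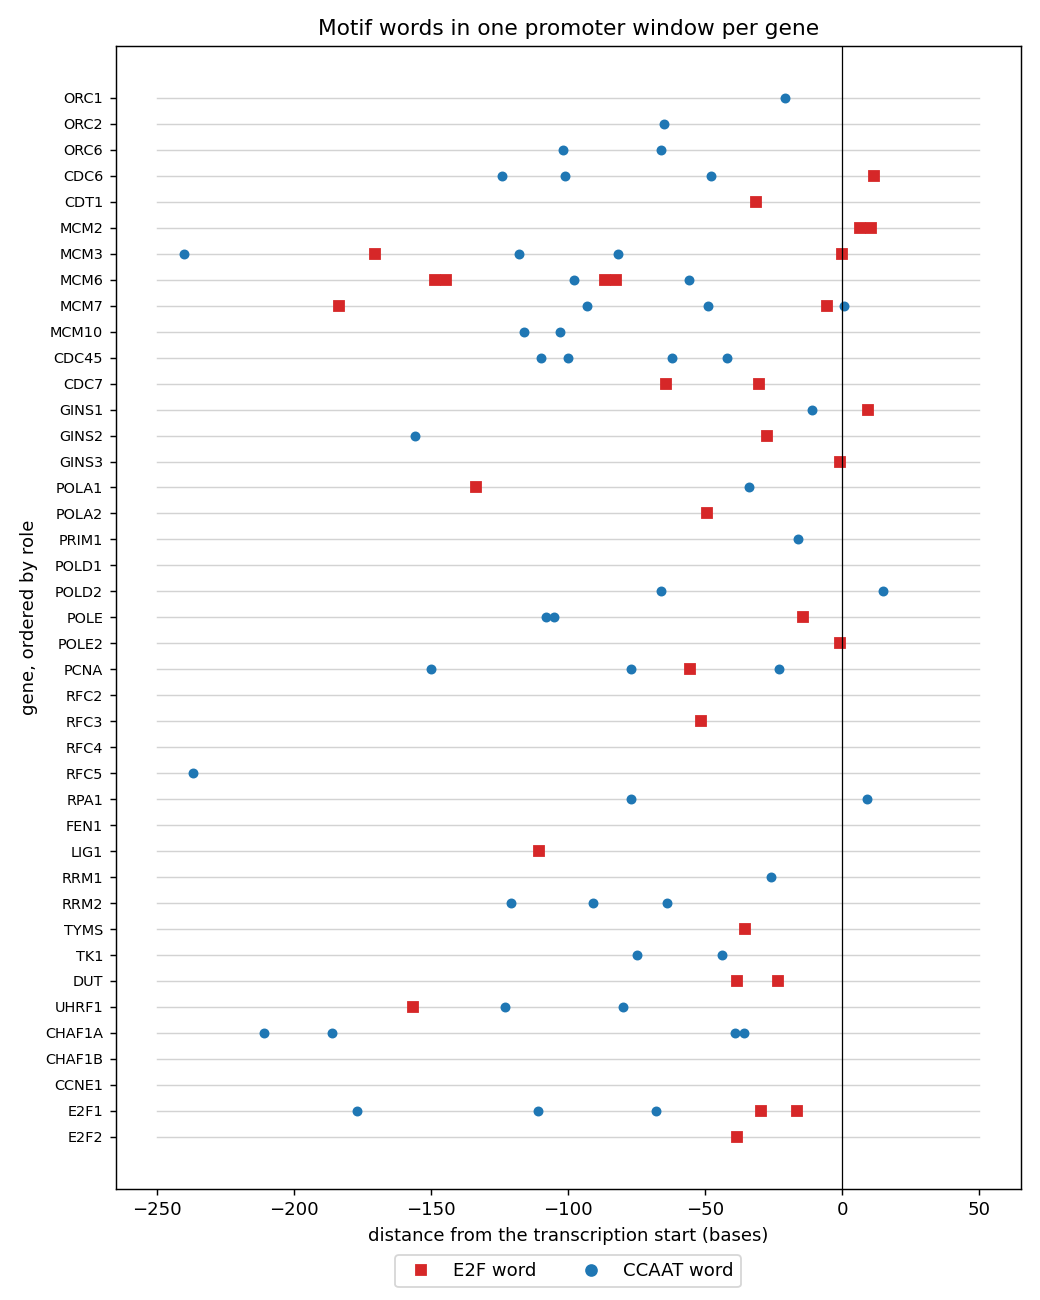
Positions of E2F words (red squares) and CCAAT words (blue circles) along the promoter window of 41 replication genes, in bases from the transcription start (vertical line), with 1 window per gene ordered by role. Where a gene had several windows, the 1 with the most E2F and CCAAT words together is drawn. An E2F word lies in 22 of the 41 windows and CCAAT in 24.

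In JeKo-1 cells, genes of every replication role were lower after 36 h of ONC201, with the largest falls in the nucleotide supply gene RRM2, in cyclin E1 and in E2F2. The test was limma's moderated test on log2 intensity with Benjamini-Hochberg adjustment over all genes of the comparison, and calls were made below an adjusted p of 0.05. At 36 h, 34 of the 44 members fell and 2 rose, where 26% of 8809 genes fell and 25.2% rose; the median log2 fold change of the members was -0.47 and that of all genes 0.00. At 24 h, 15 members fell and 4 rose (18.5% and 19.9% of all genes), with a median of -0.13. At 12 h, 1 member fell and 1 rose (1.66% and 2.17% of all genes), with a median of 0.00. In bulk RNA, fewer cells in S phase and less of each RNA per cell cannot be told apart.

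**Figure D2:**
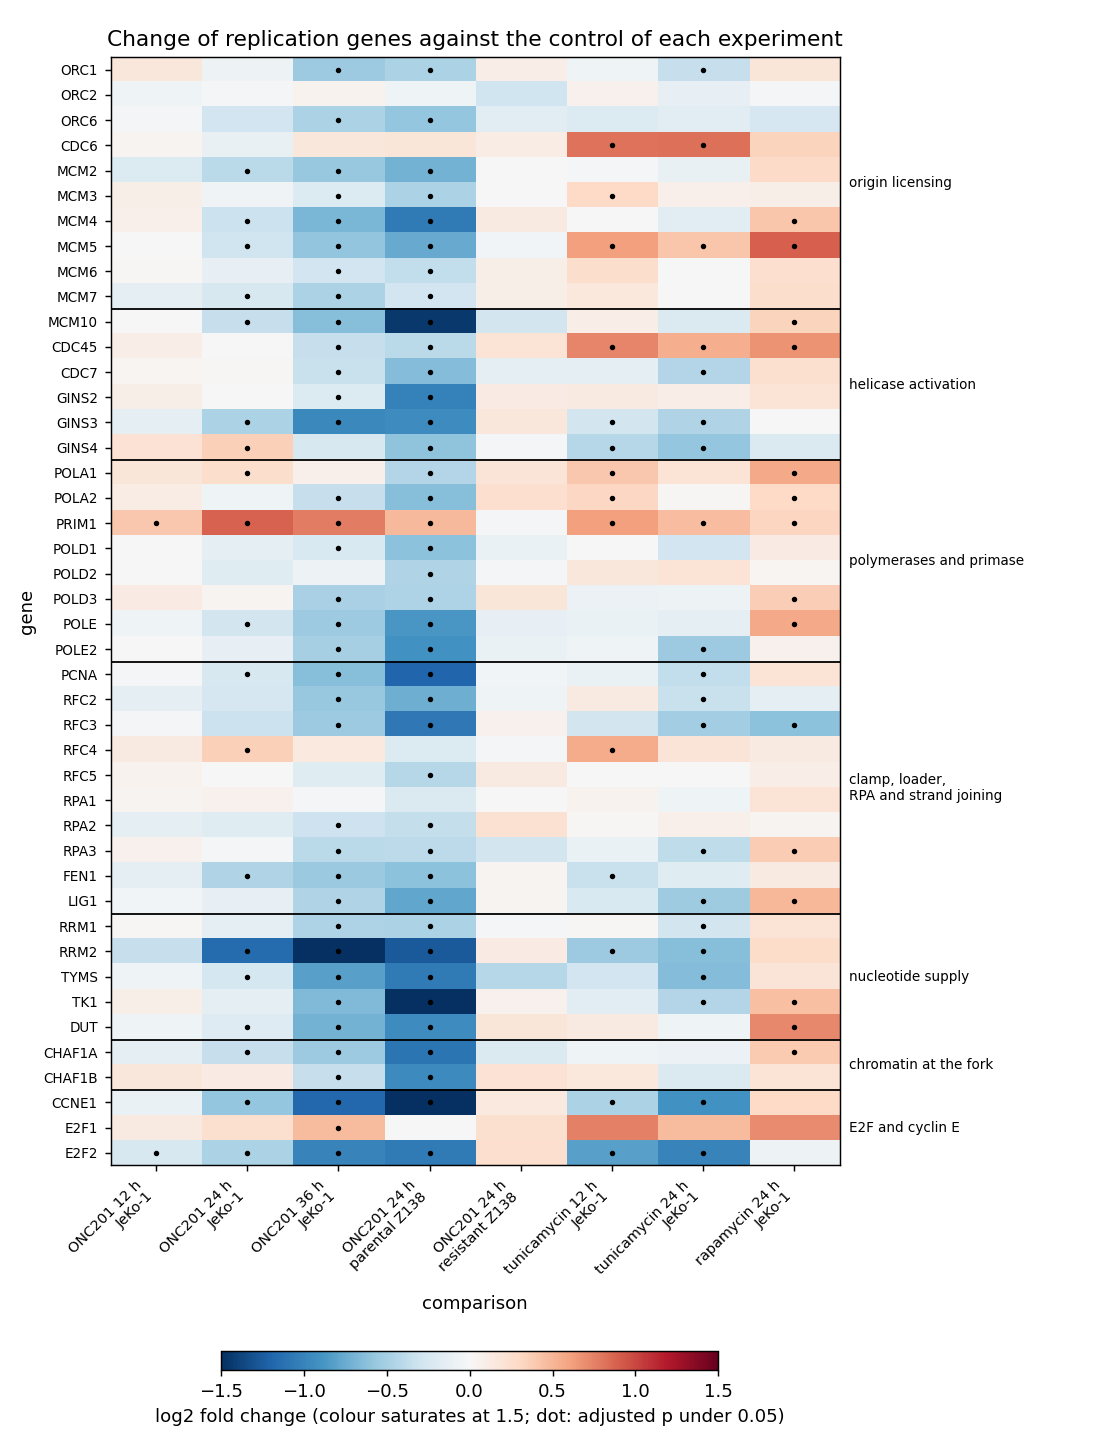
Log2 fold change of 44 replication genes (rows, grouped by role) against the control of the same experiment, in 8 comparisons (columns); blue is lower, red is higher, colour saturates at 1.5, and a dot marks an adjusted p under 0.05. Blue fills the columns of ONC201 at 36 h in JeKo-1 (34 fell) and in parental Z138 (38 fell), the column of resistant Z138 has no dot, and PRIM1 is red in 7 of the 8 columns.

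RRM2 encodes the small subunit of ribonucleotide reductase, the enzyme that makes deoxynucleotides. Its log2 intensity was 7.92, 8.17 and 8.74 at 0 h, 8.09, 7.72 and 7.99 at 12 h, 7.04, 7.14 and 7.15 at 24 h, and 6.06, 6.55 and 6.61 at 36 h. The 0 h and 12 h arrays overlapped, while every 24 h array lay below both and every 36 h array below the 24 h arrays. Of all genes, 22.4%, 47.8% and 57.2% had no overlap with 0 h at 12, 24 and 36 h. The log2 fold change was -1.16 ± 0.19 at 24 h (SE; adjusted p = 0.000601, limma) and -1.87 ± 0.19 at 36 h (adjusted p = 7.74e-06, limma). At 36 h the thymidylate synthase gene TYMS fell by 0.82, the dUTPase gene DUT by 0.71, the thymidine kinase gene TK1 by 0.66 and RRM1, the large reductase subunit, by 0.46 on the log2 scale. At 24 h, TYMS (-0.26) and DUT (-0.19) were called lower, and TK1 (-0.13) and RRM1 (-0.13) did not pass the test. The 24 h call of TYMS was lost without the first 0 h array or the first or the third 24 h array (adjusted p up to 0.0763, limma). That of DUT was lost without the first 0 h array or the second or the third 24 h array (adjusted p up to 0.0987, limma), and with the authors' normalized values. All 5 nucleotide genes were lower at 36 h than at 24 h, but the second DUT probe gave -0.09 ± 0.13 and was not called.

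CCNE1 encodes cyclin E1, the CDK2 partner that drives S phase entry. Its log2 intensity was 8.65, 8.84 and 8.71 at 0 h, 8.70, 8.52 and 8.68 at 12 h, 8.13, 8.07 and 8.28 at 24 h, and 7.62, 7.35 and 7.71 at 36 h. The 12 h arrays overlapped the 0 h arrays and CCNE1 was not called at 12 h. The 0 h, 24 h and 36 h groups did not overlap. The log2 fold change was -0.58 ± 0.10 at 24 h and -1.18 ± 0.10 at 36 h (adjusted p = 1.77e-06, limma). E2F2, an activating E2F factor, was at 11.54, 11.63 and 11.62 at 0 h, 11.36, 11.34 and 11.36 at 12 h, 11.08, 11.14 and 11.12 at 24 h, and 10.63, 10.58 and 10.59 at 36 h. Its groups did not overlap at any time, and its log2 fold change was -0.24 ± 0.06 at 12 h, -0.48 ± 0.06 at 24 h and -1.0 ± 0.06 at 36 h. E2F1, the other activating E2F on the list, did not share this course. E2F1 was at 5.42, 5.85 and 5.64 at 0 h and at 5.97, 5.85 and 6.51 at 36 h, close to the limit of detection, with a log2 fold change of 0.47 ± 0.17 (adjusted p = 0.0343, limma). Without the third 36 h array E2F1 changed by 0.27 (adjusted p = 0.146, limma), and the call was also lost without the first or the third 0 h array.

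Among licensing genes, 8 of 10 fell at 36 h with a median log2 fold change of -0.48. The MCM helicase subunits ranged from -0.68 for MCM4 and -0.59 for MCM5 to -0.29 for MCM6 and -0.21 for MCM3, and all 6 were called lower. The MCM3 call held in 4 of 12 fits that each left out 1 array (-0.26 to -0.14, adjusted p up to 0.167, limma), and was lost without the third 0 h, the first or the third 12 h, the second or the third 24 h, or any 36 h array. It was also lost with the authors' normalized values, with no detection filter and with the mean over probes, and the second MCM3 probe gave -0.17 ± 0.10 (adjusted p = 0.172, limma). ORC1 (-0.55) and ORC6 (-0.48), subunits of the origin recognition complex, also fell. ORC2 (0.05) and CDC6 (0.17) did not pass the test, and CDC6 was detected on 0 of the 3 arrays at 24 h. In helicase activation 5 of 6 genes fell at 36 h. GINS3, a subunit of the GINS ring, was at 9.96, 9.95 and 9.98 at 0 h and at 9.01, 8.94 and 9.03 at 36 h. Its log2 fold change was -0.97 ± 0.07, against -0.21 ± 0.07 for GINS2 of the same complex. MCM10 fell by 0.64, CDC45 by 0.35 and CDC7 by 0.33.

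The polymerase genes gave the smallest median of the 7 roles at 36 h (-0.29), with 5 of 8 lower and 1 higher. POLE fell by 0.54, POLE2 by 0.50, POLD3 by 0.49, POLA2 by 0.35 and POLD1 by 0.23, while POLA1 (0.08) and POLD2 (-0.08) did not pass the test. A second POLD2 probe was called lower (-0.34 ± 0.10; adjusted p = 0.0181, limma). PRIM1, the catalytic subunit of primase, went the other way. Its log2 intensity was 9.83, 9.70 and 9.64 at 0 h, 10.15, 10.16 and 10.06 at 12 h, 10.59, 10.63 and 10.60 at 24 h, and 10.53, 10.49 and 10.46 at 36 h. Every treated array lay above every 0 h array, and the log2 fold change was 0.40 ± 0.07 at 12 h (adjusted p = 0.00646, limma), 0.88 ± 0.07 at 24 h and 0.77 ± 0.07 at 36 h. A second PRIM1 probe gave 0.80 ± 0.12 at 36 h. At the clamp and loader, PCNA fell by 0.64, RFC2 by 0.57, RFC3 by 0.55, FEN1 by 0.56 and LIG1 by 0.45 at 36 h, and 7 of 10 genes of this role fell; RFC4 (0.15), RFC5 (-0.18) and RPA1 (-0.03) did not pass the test. RFC4 (0.36 ± 0.11), POLA1 (0.26 ± 0.07) and GINS4 (0.36 ± 0.12) rose at 24 h but were not called against 0 h at 36 h. The 24 h call of RFC4 was lost without the second 0 h array or the second or the third 24 h array (0.24 to 0.47 over 12 fits). Both chromatin assembly subunits fell at 36 h, CHAF1A by 0.55 and CHAF1B by 0.35.

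Between 24 and 36 h, 22 of 44 members fell and 0 rose, where 7.54% of all genes fell and 6.96% rose, and the median log2 difference was -0.28. RRM2 (-0.71 ± 0.19), GINS4 (-0.60 ± 0.12) and CCNE1 (-0.60 ± 0.10) fell most. GINS4 was detected on 1 of the 3 arrays at 36 h, so its level there lies near the background. No member was called higher in this comparison by limma at an adjusted p under 0.05. In either direction, 31 members had an unadjusted p under 0.05, as did 2581 of all 8809 genes. The RRM2 call was lost without the first, second or the third 24 h array or the first 36 h array, with log2 differences of -0.81 to -0.53 over 12 fits.

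At 36 h, 30 of the 36 calls held in all 12 fits that each left out 1 array, against 9 of 19 at 24 h. Without the second 24 h array 12 members were called at 24 h, and without the third 11. The call of E2F2 at 12 h was lost in all fits but the one without the first 24 h array, which left PRIM1 as the 1 member called. The JeKo-1 cells of the third experiment, untreated for 24 h, differed from the 0 h cells by a median of -0.05 over the 44 members and -0.05 over all genes. For single members it ran from -0.62 for CCNE1 and -0.61 for DUT to 0.53 for PCNA and 0.90 for RFC2, and it was -0.27 for RRM2, 0.32 for E2F2 and 0.40 for PRIM1. Time in culture and chip cannot be told apart in these values, and their part in the time course was not tested.

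**Figure D3:**
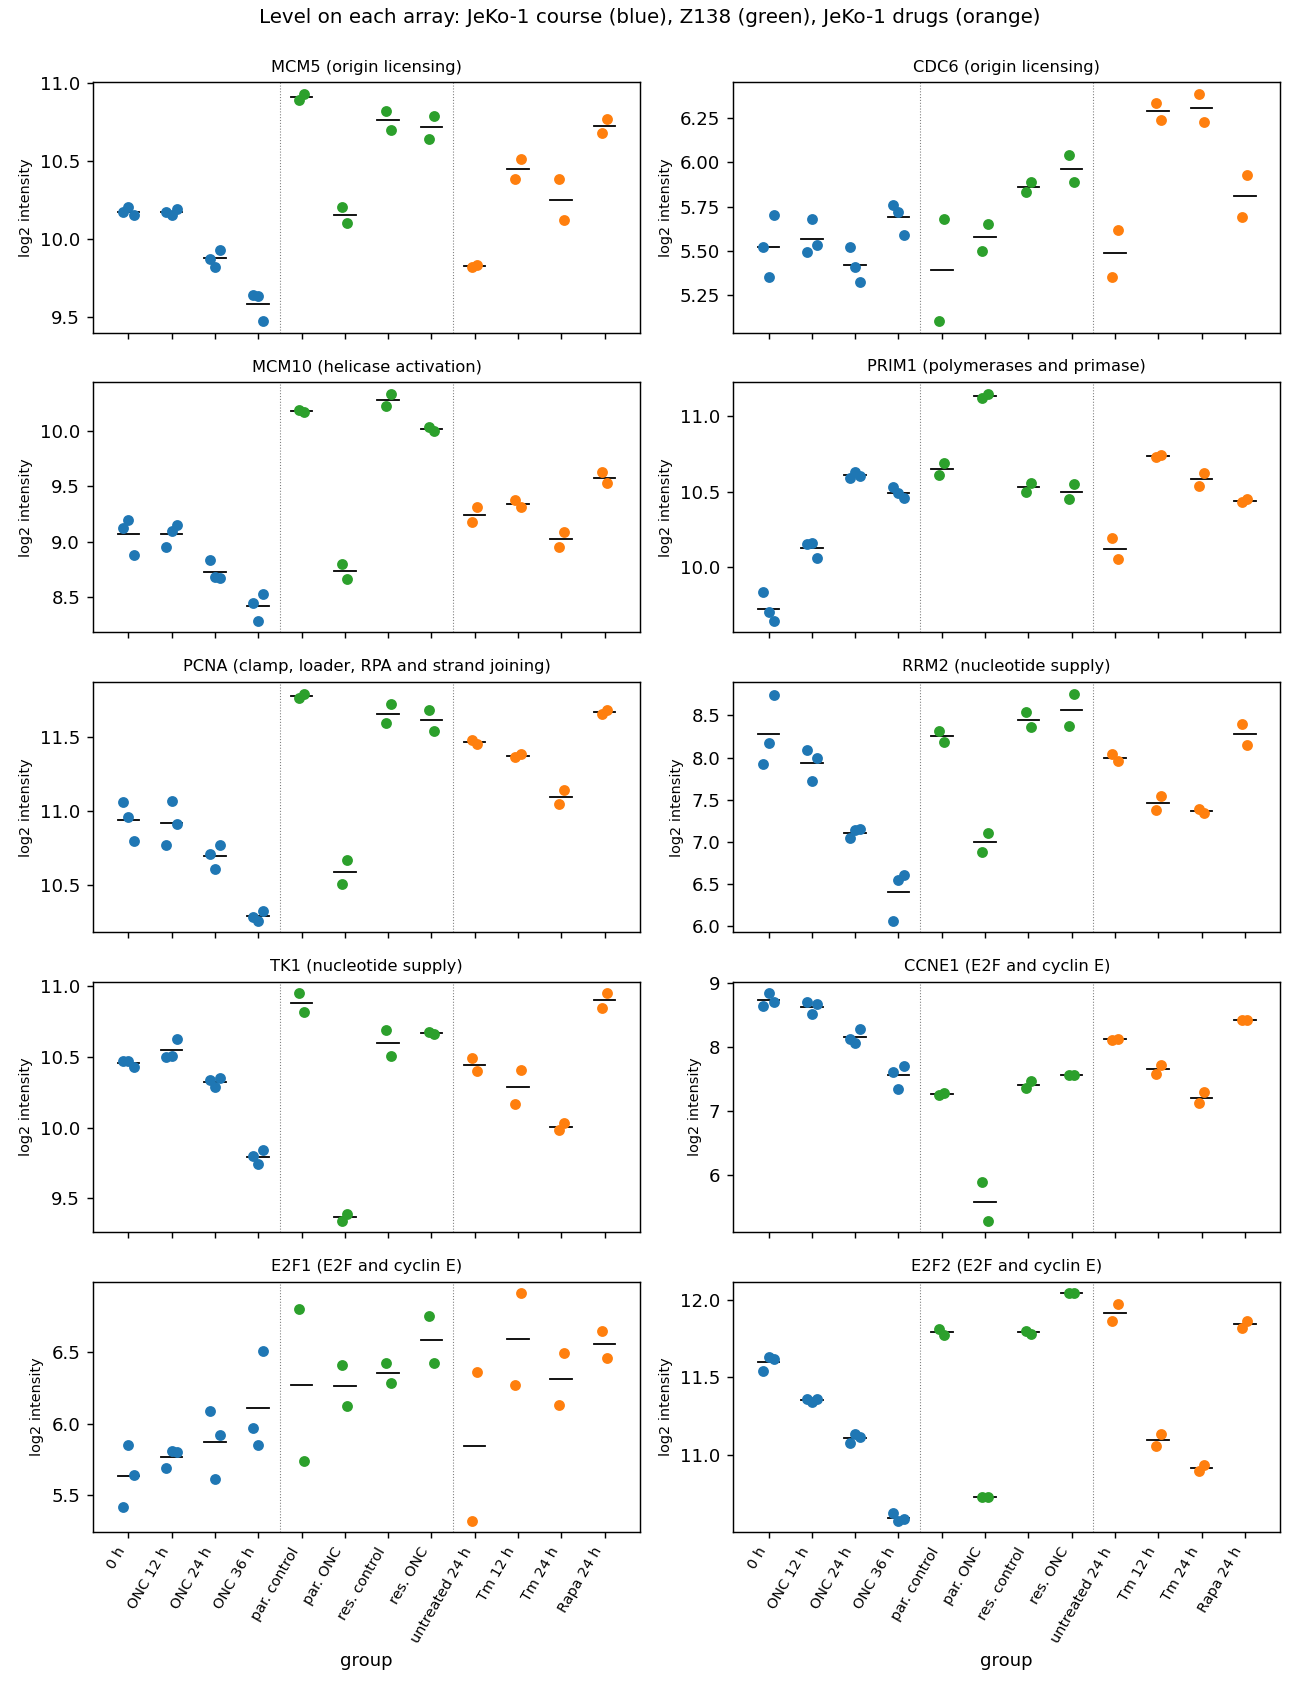
Log2 intensity of 10 replication genes on each of the 28 arrays (points), with the mean of each group as a black line; blue marks the JeKo-1 time course, green Z138 and orange the JeKo-1 drug experiment. In ONC201, RRM2 and CCNE1 step down at 24 and 36 h and E2F2 also at 12 h, while PRIM1 lies above 0 h at each time. The resistant Z138 arrays lie beside their control.

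In parental Z138 cells, 5 µM ONC201 for 24 h lowered 38 of the 44 members and raised 1, where 22% of 9420 genes fell and 22.8% rose. The median log2 fold change of the members was -0.63 and that of all genes 0.00. CCNE1, TK1 and MCM10 fell most. CCNE1 was at 7.25 and 7.28 in the control wells and at 5.89 and 5.29 with the drug, a log2 fold change of -1.67 ± 0.17 (adjusted p = 0.000144, limma). TK1, which salvages thymidine, was at 10.95 and 10.82 against 9.34 and 9.39 (-1.52 ± 0.10; adjusted p = 1.92e-05, limma). MCM10, which helps activate the helicase, was at 10.19 and 10.17 against 8.80 and 8.66 (-1.45 ± 0.09; adjusted p = 1.8e-05, limma). In these 3 genes the drug wells lay more than 1 log2 unit below the control wells; of all genes, 72% had wells that did not overlap here.

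By role, all 6 helicase activation genes, all 5 nucleotide genes and both chromatin genes fell in parental Z138, as did 8 of 10 licensing genes, 8 of 10 clamp and joining genes and 7 of 8 polymerase genes. The second DUT probe gave -0.19 ± 0.14 here and was not called. The role medians were lowest for nucleotide supply (-1.06), E2F and cyclin E (-1.06) and chromatin (-1.03), and highest for licensing (-0.47). Within licensing, MCM4 fell by 1.06, MCM5 by 0.76 and MCM2 by 0.71, against 0.37 for MCM6 and 0.29 for MCM7. Other MCM7 probes gave -1.03 ± 0.13 and 0.05 ± 0.14, so the place of MCM7 in this order depends on the probe. Within the GINS ring, GINS2 fell by 1.01, GINS3 by 0.94 and GINS4 by 0.60. PCNA, the clamp, fell from 11.76 and 11.79 to 10.51 and 10.67 (-1.19 ± 0.10). RFC3, a clamp loader subunit, fell by 1.07, CHAF1A by 1.09, E2F2 by 1.06, TYMS by 1.06 and RRM2 by 1.26. ORC2 (-0.07), CDC6 (0.18), RFC4 (-0.20), RPA1 (-0.22) and E2F1 (0.00) did not pass the test. A second RPA1 probe was called lower (-0.46 ± 0.11, adjusted p = 0.0127, limma), and the third gave -0.34 ± 0.17 and was not called. The 2 control wells of E2F1 lay at 6.80 and 5.74. PRIM1 was again the exception, at 10.61 and 10.69 in the control wells and at 11.12 and 11.15 with the drug (0.49 ± 0.09; adjusted p = 0.00278, limma), and its second probe gave 0.33 ± 0.10. Of the 39 calls, 30 held in all 8 fits that each left out 1 array, in which the remaining array of a pair was assumed to vary like the other groups; the calls lost were those of CDC45, MCM6, MCM7, ORC1, ORC6, POLD1, RFC5, RPA2 and RPA3.

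In ONC201-resistant Z138 cells the same treatment gave no call among the members. By limma at an adjusted p under 0.05, 0 of 44 fell and 0 rose, where 0.488% and 0.18% of all genes fell and rose. An unadjusted p under 0.05 was reached by 6 members and by 1860 of all 9420 genes. The members' log2 fold changes ran from -0.43 for TYMS to 0.25, with a median of 0.04, and the 95% interval reached a median of 0.22 to either side of a member's value. A second RFC2 probe lay outside this range (0.50 ± 0.10; adjusted p = 0.0829, limma), where the probe used gave -0.07 ± 0.11. For 37 of the 38 members that fell in parental cells, the 95% interval in resistant cells lay above the parental value. This leaves out the error of the parental value, by which the 38 were picked. The interaction given below carries both errors. CCNE1 was at 7.36 and 7.47 without and at 7.56 and 7.57 with the drug (0.15 ± 0.17). TK1 was at 10.69 and 10.51 against 10.68 and 10.66, and RRM2 at 8.54 and 8.36 against 8.38 and 8.76. TYMS came nearest to a call, at 12.67 and 12.65 without and 12.20 and 12.26 with the drug (-0.43 ± 0.09; adjusted p = 0.067, limma). Its wells did not overlap, and of all genes 52.1% had wells that did not overlap in this comparison. Of the other settings of the test, 5 called 1 to 3 members, and the fits that left out 1 array called 0.

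**Figure D4:**
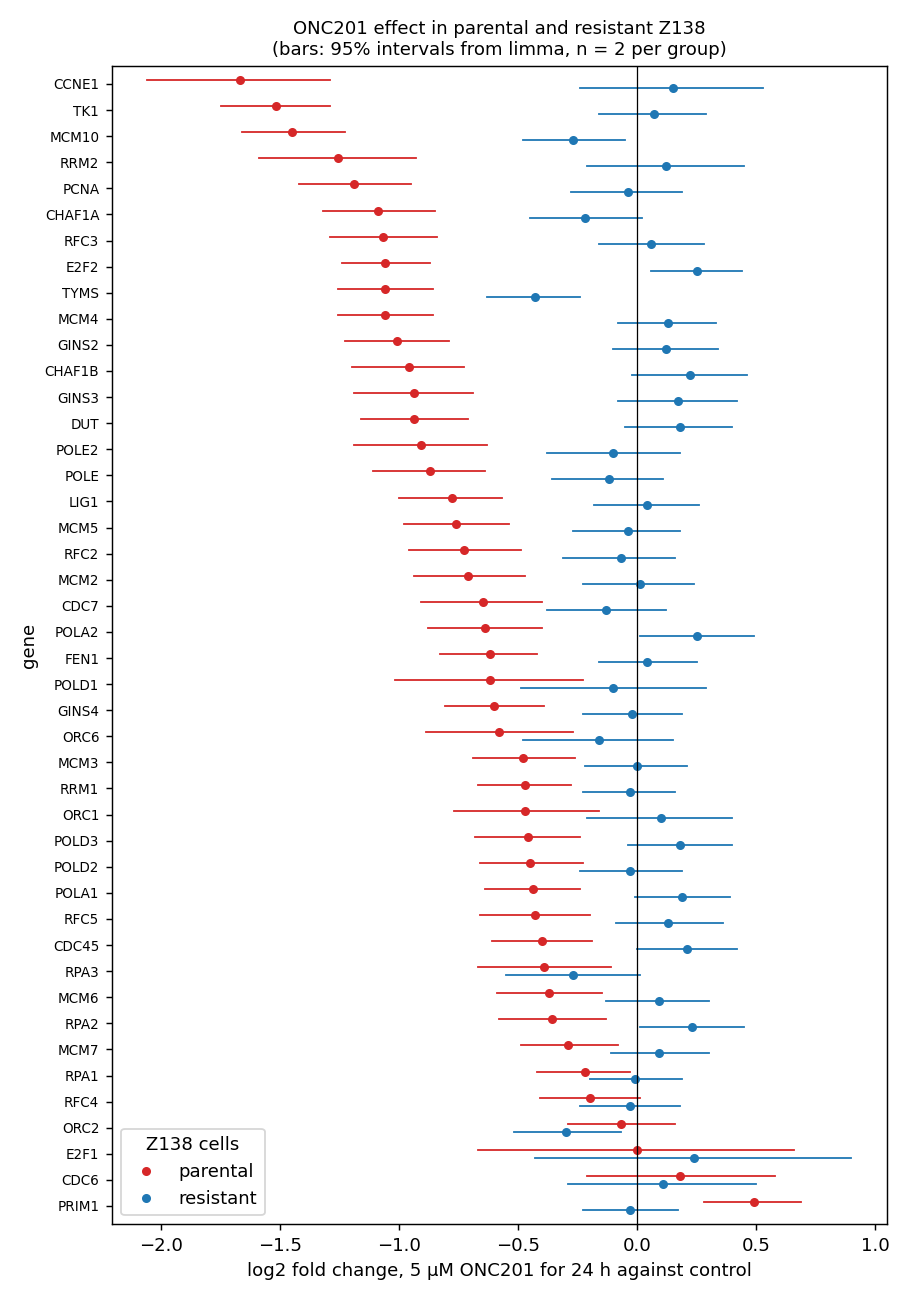
Log2 fold change with ONC201 against control (horizontal axis) for 44 replication genes in parental (red) and resistant (blue) Z138 cells, with 95% intervals from limma and n = 2 wells per group, ordered by the parental value. The parental points run from -1.67 for CCNE1 to 0.49 for PRIM1, and the resistant points lie between -0.43 and 0.25.

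The difference between the resistant and the parental effect, tested as an interaction, was called for 34 of 44 members: 33 were higher and 1 lower in the resistant line, where 14.3% of all genes were higher and 16.3% lower. The median difference was 0.63. CCNE1 differed by 1.82 ± 0.24, TK1 by 1.59 ± 0.14 and PRIM1, the 1 lower gene, by -0.52 ± 0.13 (adjusted p = 0.0167, limma). The PRIM1 call was lost without the second resistant control well or the first resistant drug well (-0.57 to -0.46 over 8 fits, adjusted p up to 0.056, limma). All 6 helicase activation genes and all 5 nucleotide genes were called, against 5 of 10 licensing genes. These counts depend on the probe used. MCM7 was not called, but its other probes gave 0.93 ± 0.19 (adjusted p = 0.00902, limma) and -0.12 ± 0.20. The other probes of RPA1, also not called, gave 0.68 ± 0.16 (adjusted p = 0.0165, limma) and 0.60 ± 0.24. The second probes of DUT (0.17 ± 0.19) and POLA1 (0.19 ± 0.21) were not called. Of the 34 calls, 27 held with each array left out in turn. Without drug, 0 of 44 members differed between the resistant and the parental line by limma at an adjusted p under 0.05. Of all genes, 2.43% were lower and 1.55% higher. An unadjusted p under 0.05 was reached by 3 members and by 1711 of all 9420 genes. The median difference of the members was 0.03, the most negative was -0.29 for TK1 and the most positive 0.47 for CDC6. Without the second parental control well, 1 member was called in this comparison.

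With tunicamycin in JeKo-1 cells, against untreated cells at 24 h, 6 members fell and 8 rose after 12 h (11.7% and 13.9% of 9498 genes), and 16 fell and 4 rose after 24 h (15.4% and 17.3%). The medians were 0.00 at 12 h and -0.15 at 24 h. The untreated wells were harvested at 24 h, so drug and time in culture cannot be told apart at 12 h. At 24 h E2F2 and CCNE1 fell most. E2F2 was at 11.86 and 11.97 untreated, 11.06 and 11.14 at 12 h, and 10.90 and 10.94 at 24 h (-1.0 ± 0.08 at 24 h; adjusted p = 0.000148, limma). CCNE1 was at 8.12 and 8.13 untreated, 7.58 and 7.73 at 12 h, and 7.13 and 7.30 at 24 h (-0.91 ± 0.10; adjusted p = 0.000381, limma). For both genes every treated well lay below every untreated well, and of all genes 65.7% at 12 h and 68.5% at 24 h had wells that did not overlap. Of the nucleotide genes 4 of 5 fell at 24 h: TYMS by 0.65, RRM2 by 0.64, TK1 by 0.44 and RRM1 by 0.27, while DUT (-0.07) did not pass the test.

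Of the 4 members that rose at 24 h, 2 were licensing genes. CDC6, the loader of the MCM helicase, was at 5.35 and 5.62 untreated, 6.34 and 6.24 after 12 h and 6.39 and 6.23 after 24 h of tunicamycin. Its log2 fold change was 0.81 ± 0.13 at 12 h (adjusted p = 0.00438, limma) and 0.83 ± 0.13 at 24 h (adjusted p = 0.00265, limma). CDC45, a part of the active helicase, was at 11.18 and 11.08 untreated, 11.89 and 11.83 at 12 h, and 11.66 and 11.68 at 24 h (0.73 ± 0.08 and 0.54 ± 0.08). MCM5 rose by 0.62 at 12 h and by 0.42 at 24 h, while MCM2, MCM3, MCM4, MCM6 and MCM7 lay between -0.16 and 0.08 at 24 h and did not pass the test. The second MCM4 probe was called lower at 24 h (-0.41 ± 0.13; adjusted p = 0.0437, limma). The 24 h call of MCM5 was lost without either untreated well or the first 24 h well (0.29 to 0.55 over 8 fits). PRIM1 rose by 0.61 ± 0.09 at 12 h and by 0.46 ± 0.09 at 24 h. GINS4 (-0.58), POLE2 (-0.54), LIG1 (-0.53), RFC3 (-0.52), GINS3 (-0.45), CDC7 (-0.44) and PCNA (-0.37) fell at 24 h. Of the 20 calls at 24 h, 10 held with each array left out in turn, and without the first 24 h tunicamycin well 11 members were called. Of the 14 calls at 12 h, 6 held: 6 members were called without the first untreated well, 9 without the second, 7 and 8 without the first and second 12 h tunicamycin wells, and 9 without either rapamycin well. The 12 h call of CCNE1 was lost without either untreated well or the first 12 h well (-0.54 to -0.39 over 8 fits). That of RRM2 at 12 h was lost without the first untreated well or the first 12 h well (-0.62 to -0.46). At 24 h, TK1 lost its call without the first untreated well or either tunicamycin well (-0.48 to -0.40), PCNA without the first untreated or first tunicamycin well (-0.42 to -0.33), GINS4 without the first tunicamycin well (-0.73 to -0.43) and LIG1 without the second (-0.57 to -0.49).

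With rapamycin, 14 of 44 members rose and 1 fell, where 12% of all genes rose and 12.6% fell, with a median log2 fold change of 0.22. MCM5 was at 9.82 and 9.83 untreated and at 10.68 and 10.77 with rapamycin (0.90 ± 0.11; adjusted p = 0.00168, limma). DUT was at 8.96 and 8.88 against 9.67 and 9.61 (0.72 ± 0.09; adjusted p = 0.00158, limma), but its second probe gave 0.11 ± 0.15 and was not called. CDC45 rose by 0.67, POLA1 by 0.57, POLE by 0.57, LIG1 by 0.50, TK1 by 0.45 and MCM4 by 0.42. Second probes of POLA1 (0.22 ± 0.16, adjusted p = 0.365, limma) and MCM4 (0.32 ± 0.13, adjusted p = 0.108, limma) were not called, and the MCM4 call was lost without either untreated well or the first rapamycin well. RFC3 was the 1 member that fell, from 9.05 and 9.01 to 8.46 and 8.39 (-0.61 ± 0.10; adjusted p = 0.00487, limma). Polymerase genes had 5 of 8 members higher (POLA1, POLA2, PRIM1, POLD3 and POLE). CCNE1 (0.30), E2F2 (-0.08) and E2F1 (0.71 ± 0.34) did not pass the test; the 2 untreated wells of E2F1 lay at 5.32 and 6.36. Of the 15 calls, 6 held with each array left out in turn, and PRIM1 (0.32 ± 0.09) was called in 2 of 8 such fits, those without a 24 h tunicamycin well. TK1 lost its call without either untreated well or the second rapamycin well, and LIG1 without the first untreated or second rapamycin well. Without the first untreated well 6 members were called, without the second 9, and without the first and second rapamycin wells 9 and 7.

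**Figure D5:**
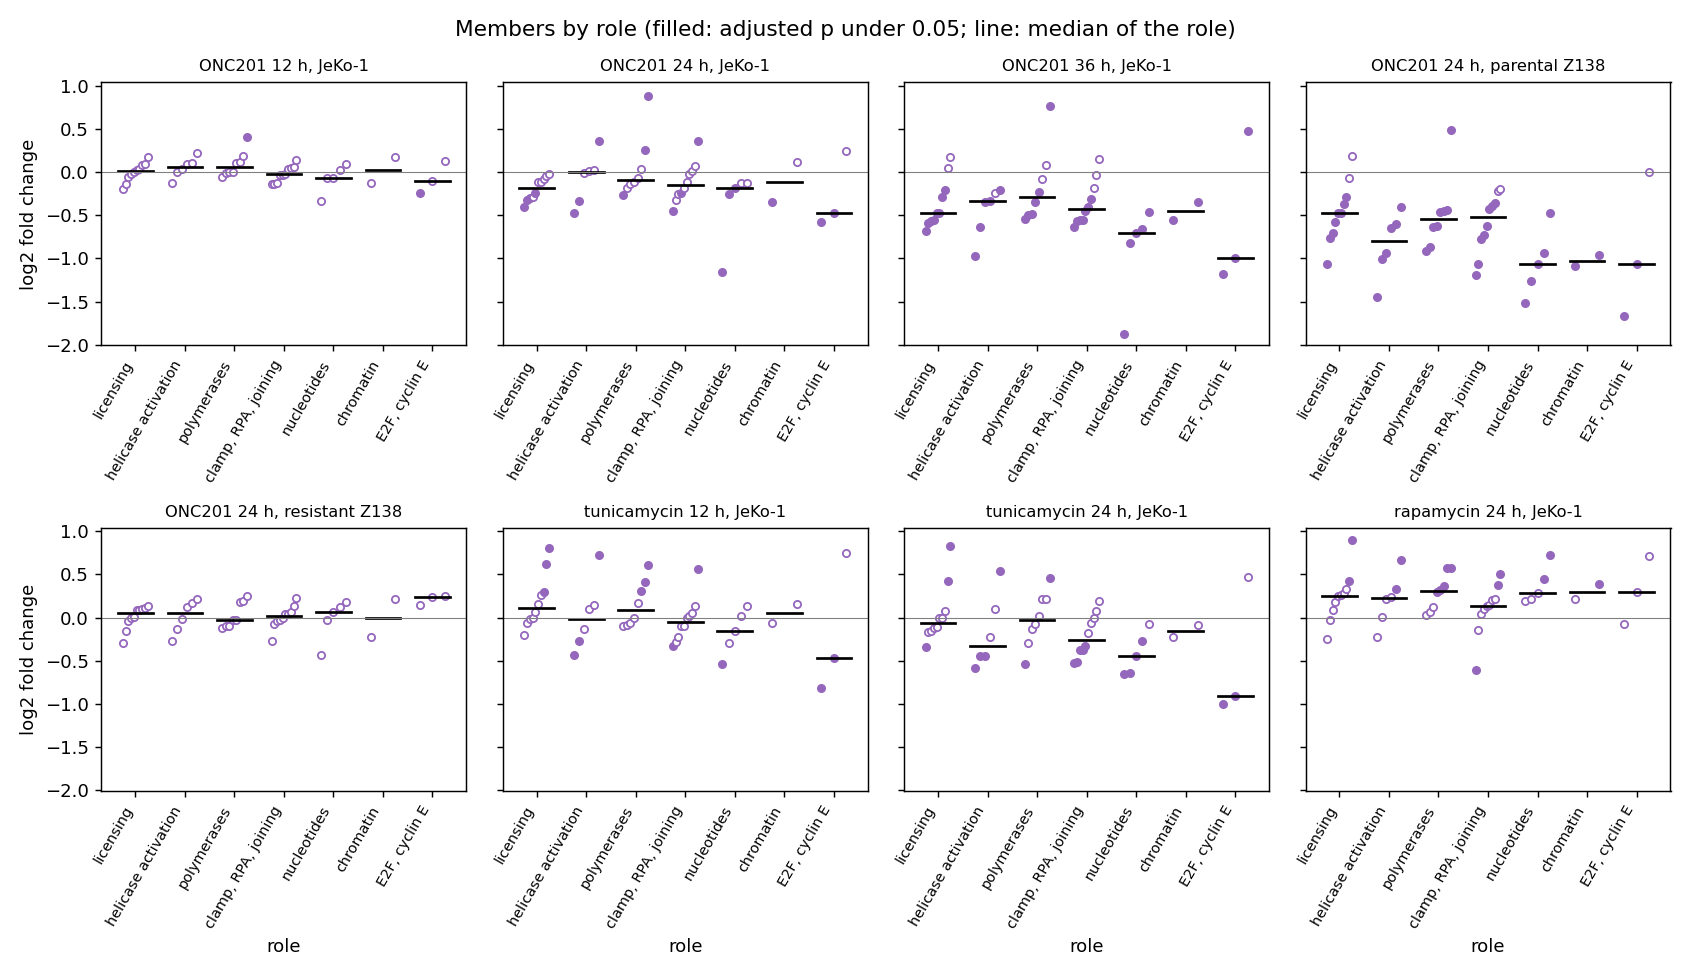
Log2 fold change of the members (points) by role (horizontal axis) in 8 comparisons (panels); filled points have an adjusted p under 0.05 and the line is the median of the role. The nucleotide genes lie below 0 with ONC201 at 36 h (median -0.71), in parental Z138 (-1.06) and with tunicamycin at 24 h (-0.44), and above 0 with rapamycin (0.28).

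Set directly against each other at 24 h, 26 members were lower and 1 higher with tunicamycin than with rapamycin, where 16.5% of all genes were lower and 18.2% higher, with a median difference of -0.41. CCNE1 differed by -1.21 ± 0.10, LIG1, the ligase that seals nicks on the lagging strand, by -1.03 ± 0.11, and E2F2 by -0.92 ± 0.08. All 5 nucleotide genes were lower, by 0.48 for RRM1 to 0.91 for RRM2, but the second DUT probe gave 0.08 ± 0.15 and was not called. CDC6 was the 1 gene higher with tunicamycin (0.50 ± 0.13; adjusted p = 0.0208, limma), and this call was lost without the first 24 h tunicamycin well or the first rapamycin well (0.38 to 0.63 over 8 fits, adjusted p up to 0.113, limma). Of the 27 calls, 18 held with each array left out in turn. Both drugs were compared with the same untreated wells above, so their separate counts are not independent. RFC3 was called lower and CDC45, MCM5 and PRIM1 higher with each of them. Of 9498 genes, 5.11% were called lower with both drugs, and the share called higher with both was not computed. As given above, the calls of MCM5 with tunicamycin and PRIM1 with rapamycin were lost when single arrays were left out.

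The effect of ONC201 at 24 h in JeKo-1, against 0 h, was then set against the effects of the other drugs at 24 h, each against its own control. The controls differ in time in culture and chip, so drug and control cannot be told apart. Untreated cells at 24 h differed from 0 h by -0.61 for DUT, -0.53 for CDC45, -0.34 for MCM5 and -0.27 for RRM2. This difference, which enters each comparison, was -0.04 for CDC6, 0.32 for E2F2, 0.35 for GINS4 and 0.40 for PRIM1. Relative to tunicamycin, 5 members were lower and 9 higher with ONC201 (13.3% and 13.3% of 8595 genes), with a median difference of 0.03. With median centring in place of quantile normalization, 4 were lower and 3 higher. CDC6 (-0.94 ± 0.16), MCM5 (-0.72 ± 0.11) and CDC45 (-0.53 ± 0.12) were lower, and GINS4 (0.94 ± 0.19) and E2F2 (0.51 ± 0.08) were higher. The mean of CDC45 at 24 h was 11.67 with ONC201 and 11.67 with tunicamycin, against 11.66 at 0 h and 11.13 in untreated cells. CDC6 was not detected on the 3 ONC201 24 h arrays, so its level there is only a bound. The count of 14 was 9 without either untreated well or the first ONC201 24 h array and 8 without the first tunicamycin well. Relative to rapamycin, 24 members were lower and 2 higher with ONC201 (15.7% and 16.6% of all genes), with a median of -0.37. RRM2 (-1.44 ± 0.27), MCM5 (-1.20 ± 0.11) and DUT (-0.92 ± 0.10) were lower, and PRIM1 (0.56 ± 0.10) and GINS4 (0.58 ± 0.19) were higher. GINS4 lost this call without the first untreated well, the first or the third 0 h array, the first ONC201 24 h array or the second rapamycin well (0.43 to 0.72 over 20 fits, adjusted p up to 0.146, limma). With median centring in place of quantile normalization, 17 members were lower and 2 higher, and 787 of all genes were lower and 1457 higher, in place of 1349 and 1425.

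Between the lines, 31 of 44 members were higher and 0 lower in the ONC201 effect of JeKo-1 at 24 h than in that of parental Z138 (13.8% and 13.6% of 8158 genes), that is, less reduced or more raised in JeKo-1, with a median difference of 0.48. TK1 differed by 1.39 ± 0.11 and MCM10 by 1.11 ± 0.13. The dose in JeKo-1 is not given and the controls differ in time, so line, dose and control cannot be told apart. With median centring in place of quantile normalization, 13 members were higher and 0 lower, the median of all genes moved to -0.181, and 1431 of all genes were lower and 378 higher, in place of 1110 and 1122. GINS4 and POLA1, the catalytic subunit of polymerase alpha, were called with opposite signs in the 2 lines. GINS4 was at 5.70, 6.09 and 5.78 at 0 h and 6.30, 6.19 and 6.15 at 24 h in JeKo-1 (0.36), against -0.60 in Z138. POLA1 was at 9.87, 9.86 and 10.02 at 0 h and 10.17, 10.09 and 10.27 at 24 h (0.26), against -0.44 in Z138. The JeKo-1 call of GINS4 was lost in 6 of 12 fits without 1 array (the first or the third 0 h, any 24 h, or the second 36 h array; 0.28 to 0.47), and that of POLA1 without the third 24 h array (0.21 to 0.31).

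All 34 members that fell at 36 h in JeKo-1 also fell in parental Z138 at 24 h, and 15 of them also fell with tunicamycin at 24 h: CCNE1, CDC7, E2F2, GINS3, LIG1, ORC1, PCNA, POLE2, RFC2, RFC3, RPA3, RRM1, RRM2, TK1 and TYMS. The 34 are 89.5% of the 38 that fell in Z138, and the 15 are 93.8% of the 16 that fell with tunicamycin. Of all genes, 14.1% of 8255 fell in both ONC201 comparisons and 6.1% of 8158 in all 3, and 38 of the 44 members tested in Z138 fell there. PRIM1 was called higher in all 3. The median log2 fold changes of genes with and without an E2F word in the promoter window were -0.47 and -0.46 at 36 h in JeKo-1, -0.78 and -0.58 in parental Z138, -0.11 and -0.18 with tunicamycin at 24 h, and 0.25 and 0.21 with rapamycin, over 19 genes each. In parental Z138, 17 of 19 genes with the word and 15 of 19 without it fell. RRM2, CCNE1, TK1 and MCM10 have none of the E2F words in the window searched, which says only that these letters are not in it.

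A second list held 46 other genes of replication and the G1/S switch. At 36 h in JeKo-1, 22 of the 37 tested fell and 3 rose (median -0.43), and in parental Z138 26 of 39 fell and 2 rose (median -0.45). Of all genes, 26% fell and 25.2% rose at 36 h in JeKo-1, and 22% fell and 22.8% rose in parental Z138. CDC25A, the phosphatase that activates CDK2, fell by 0.91 and 1.30, and GMNN, the inhibitor of CDT1, by 0.85 and 1.26. POLD4, the small subunit of polymerase delta, changed in opposite directions: it fell by 1.12 at 36 h in JeKo-1 and rose by 0.84 in parental Z138, and at 24 h the effect in JeKo-1 was lower by 1.55 ± 0.17 (adjusted p = 6.92e-07, limma). POLD4 also rose by 1.28 with rapamycin. With rapamycin 16 of 38 genes of the second list rose and 1 fell (median 0.29), E2F5 by 0.89 and E2F7 by 0.73; with tunicamycin at 24 h 10 fell and 3 rose (median -0.03), TFDP2, a dimer partner of E2F, by 1.30. Of all genes, 12% rose and 12.6% fell with rapamycin, and 15.4% fell and 17.3% rose with tunicamycin at 24 h. In resistant Z138, where 0.488% of all genes fell and 0.18% rose, 0 of 39 were called by limma at an adjusted p under 0.05. There, 7 had an unadjusted p under 0.05, as did 1860 of all 9420 genes. Of 25 genes of mitosis, 22 fell and 0 rose at 36 h in JeKo-1 (median -0.58), 20 fell and 0 rose in parental Z138 (-0.44), 11 fell and 1 rose with tunicamycin at 24 h (-0.26), and 1 fell and 8 rose with rapamycin (0.22). The shares of all genes given for the second list hold for these comparisons too. Whether the members differ from the mitosis genes was not tested.

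Where a member had more than 1 probe above the filter, the probes were compared. In 152 such comparisons of 13 members, 0 had probes called in opposite directions and 29 had a call from 1 probe only. In parental Z138 the 2 probes of PCNA gave -1.19 and -1.29 and those of MCM10 -1.45 and -1.58. DUT was called by 1 of 2 probes in parental Z138, at -0.94 against -0.19, and the 3 probes of MCM7 gave -0.29, -1.03 and 0.05.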

How the data were processed

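RNA of 28 samples was measured on Illumina HT-12 bead arrays. Per the submitters' processing notes the arrays were read with GenomeStudio, whose version and settings are not given in the sources used here. The deposited table used here holds, per the file headers, an average signal intensity and a detection p-value for each of 47231 probes and each array, and the intensity values were not normalized or background corrected by the authors. A second deposited intensity table, background subtracted, differed from it by 42.1 to 60 units per array, and another held the authors' normalized intensity values of 38220 probes; how these were normalized is not given in the sources used here, and both served as alternatives. Probes were named from the platform annotation, which gives 1 symbol to 27004 probes (57.2%) and several to 4.

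Intensities were background corrected from negative controls inferred from the detection p-values, given an offset of 16, quantile normalized over the 28 arrays and put on the log2 scale (neqc, limma 3.58.1, R 4.3.3). A gene was represented by the probe with the highest mean over all arrays. Within each experiment, genes were kept where the detection p-value was under 0.01 on at least 3 arrays (time course) or 2 arrays (other experiments). Group means were fitted with limma's lmFit and eBayes over the arrays of an experiment, with all groups sharing 1 estimate of the spread; differences between experiments were fitted over the arrays involved. Adjusted p-values are Benjamini-Hochberg values over all genes of each of 15 comparisons, two-sided, and errors given with ± are standard errors from limma. The number of arrays limits the precision. The fit was tested on simulated data.

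The members and the lists were chosen with earlier results of these data known. Any member could be named; values were given for up to 3 called members with the largest fall and up to 2 with the largest rise per comparison, and for a panel fixed by role. Members named beyond these, and the genes named from the second list, were chosen after their values were seen. Alternatives covered background correction, offset, the authors' other tables, normalization, the filter, the choice of probe, the variance model, a replicate block and leaving out each array. Promoter windows came from RefSeq (GRCh38.p14). Figures were drawn with matplotlib 3.10.9.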

Additional observations from a re-analysis of the deposited data

Results flagged for a closer look

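The effect of ONC201 on replication genes differed between the resistant and the parental Z138 line: the interaction was called for 34 of the 44 members. It also differed between JeKo-1 at 24 h and parental Z138, where 31 members were called. GINS4 was called higher in JeKo-1 and lower in parental Z138, and the difference of the log2 fold changes was 0.96. POLA1 was likewise called with opposite signs in the 2 lines, with a difference of 0.70. No group held 4 or more arrays, so no array was tested as an outlier.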

How the results depend on the processing

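Of the counts of members called under other settings, 302 lay within 1.5 times the main count and 42 did not; of the values of named members, 1138 kept their side of the threshold, 44 lost the call and 0 reversed. For ONC201 at 12 h, the authors' normalized values and the replicate block each left 1 call in place of 2. For the effect of ONC201 at 24 h in JeKo-1 against that in parental Z138, median centring left 13 in place of 31. Against tunicamycin, 8 members were called with no detection filter and 7 with median centring (4 lower, 3 higher), in place of 14. With no detection filter, tunicamycin at 12 h gave 9 in place of 14. For ONC201 in resistant Z138, in place of 0, the filter on every array, no background correction and an offset of 50 each called 1 member, the trend and robust prior 2 and 1 fit over 28 arrays 3. For untreated resistant against parental Z138, 1 fit over 28 arrays and the trend and robust prior each called 1. The cause was not tested. Leaving out 1 array gave 1 to 2 calls for ONC201 at 12 h, 11 to 19 at 24 h, 31 to 36 at 36 h and 16 to 25 between 24 and 36 h, 33 to 39 in parental and 0 to 0 in resistant Z138, 28 to 32 for their interaction, 0 to 1 without drug, 6 to 10 for tunicamycin at 12 h, 11 to 18 at 24 h, 6 to 12 for rapamycin, 19 to 28 between these drugs, 8 to 14 and 19 to 26 for ONC201 against tunicamycin and rapamycin, and 27 to 32 between the lines. The replicate numbers did not pair the arrays: same-numbered arrays had median correlations of -0.023, 0.039 and -0.021 in the 3 experiments. With the replicate block, 17, 36 and 19 members were called for ONC201 at 24 h, 36 h and between them, 39 in parental and 0 in resistant Z138, 33 for their interaction, 10, 18 and 11 for tunicamycin at 12 and 24 h and rapamycin. CDC6, GINS4 and E2F1 were detected on 21, 26 and 27 of 28 arrays, so their values lie near the background.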
